A study of Mus musculus with 24 samples.

Results

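The DNA replication genes described here are 35 listed genes whose products act when a cell copies its genome. They were chosen by function, from a written list, and not by a threshold on the counts. Earlier results of these data were known when the list was made. All 35 were found among the 24421 genes counted and all 35 were among the 13166 genes that passed the filter on low counts. No member had a count of 0 in any library, and single counts ran from 57 to 10101.

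Splenic conventional dendritic cells (cDCs) of 2 kinds, cDC1 and cDC2, were sorted by flow cytometry from untreated C57Bl/6 mice aged 6 to 12 weeks, and their RNA was sequenced in 24 libraries. Mice of the deletion line (CD11cCRExZeb2fl/fl) carried floxed alleles of Zeb2, a transcription factor, and a Cre recombinase driven by the CD11c promoter. Their controls were Zeb2fl/fl littermates without Cre. Mice of the transgene line (CD11cCRExR26-Zeb2Tg/Tg) carried a Cre-dependent Zeb2 transgene at the Rosa26 locus with the same Cre, and their controls were R26-Zeb2Tg/Tg littermates without it. Each combination of subset and line had 2 CRE- and 4 CRE+ libraries, which makes 8 groups. The controls lack Cre as well as the change in Zeb2, so an effect of Cre itself cannot be told apart from that of Zeb2, and Cre acts in every cell that uses the CD11c promoter. The labels do not say that libraries of 1 group came from separate mice, so the p-values below measure only the spread between these libraries.

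Before S phase, Cdc6 and Cdt1 load the ring of MCM proteins onto origins of replication, and Cdc45 and the GINS complex turn that ring into the active helicase. DNA polymerases then copy both strands on the sliding clamp Pcna, while ribonucleotide reductase and other enzymes supply nucleotides. E2F transcription factors and cyclin E drive transcription of many of these genes as cells leave G1. Most cDCs in the spleen are short-lived descendants of dividing precursors, and a fraction of them still divides.

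Libraries held 21972763 to 36094786 reads assigned to genes. Levels are given as CPM, read counts divided by the library's total and scaled by TMM, edgeR's correction for RNA composition. Zeb2 read 176 and 132 CPM in CRE- cDC2 of the deletion line and 38.0, 41.4, 33.0 and 30.7 CPM in CRE+ cDC2 (log2 fold change -2.11 ± 0.27, adjusted p = 5.14e-05). In cDC1 of the transgene line it read 3.26 and 2.36 CPM without Cre and 44.3, 45.0, 46.3 and 41.4 CPM with Cre (log2 fold change 3.96 ± 0.39, adjusted p = 3.88e-07). CRE- cDC1 of the deletion line were already near the floor, at 0.489 and 2.56 CPM, so the level of Zeb2 does not check the deletion there. Transgenic cDC2 read 151, 152, 148 and 159 CPM against 104 and 104 CPM, with an adjusted p of 0.618. Among the 8 groups, the 10 listed cDC1 markers summed to 6098 to 12430 CPM per cDC1 library and to 213.5 to 417 CPM per cDC2 library, while the 10 cDC2 markers summed to 2621 to 3456 CPM in cDC2 and to 261 to 790 CPM in cDC1.

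Genes that share a program often share short promoter sequences, and E2F sites are the known ones for replication genes. Promoter windows of RefSeq (GRCm38.p6, from 250 bases before the start of transcription to 50 after it) were matched for 30 of the 35 genes, in 36 windows. Mcm4, Gins1, Gins2, Ccne2 and Pole were not matched. The E2F words searched on both strands were TTTGGCGC, TTTCCCGC, TTTGCCGC and TTTCGCGC. At least 1 of them stood in 12 of the 36 windows (33.3%), against 3.85% of the windows of all tested genes and 2.26% of all 32851 windows. Of the 5 windows shown, 4 are from MCM genes that the comparisons below describe, and the fifth is from E2f2, which separated the subsets. Capitals mark the E2F words, and the letters run 5′ to 3′ along the gene's strand. The windows are chr1:20820263-20820562 (minus strand), chr8:75109259-75109558 (plus strand), chr1:128359656-128359955 (minus strand), chr5:138171834-138172133 (minus strand) and chr4:136172024-136172323 (plus strand).
Mcm3: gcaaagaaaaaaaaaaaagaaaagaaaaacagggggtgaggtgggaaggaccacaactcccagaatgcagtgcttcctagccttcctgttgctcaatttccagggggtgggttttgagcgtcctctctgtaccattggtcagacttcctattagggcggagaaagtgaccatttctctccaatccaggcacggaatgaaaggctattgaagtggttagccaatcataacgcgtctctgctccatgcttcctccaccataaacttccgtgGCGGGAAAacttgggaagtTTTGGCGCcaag
Mcm5: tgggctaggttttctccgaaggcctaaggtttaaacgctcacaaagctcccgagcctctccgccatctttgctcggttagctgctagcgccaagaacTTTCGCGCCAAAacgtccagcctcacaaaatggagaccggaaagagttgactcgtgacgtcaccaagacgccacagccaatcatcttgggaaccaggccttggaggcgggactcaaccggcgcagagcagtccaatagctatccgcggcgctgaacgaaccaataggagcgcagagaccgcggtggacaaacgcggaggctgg
Mcm6: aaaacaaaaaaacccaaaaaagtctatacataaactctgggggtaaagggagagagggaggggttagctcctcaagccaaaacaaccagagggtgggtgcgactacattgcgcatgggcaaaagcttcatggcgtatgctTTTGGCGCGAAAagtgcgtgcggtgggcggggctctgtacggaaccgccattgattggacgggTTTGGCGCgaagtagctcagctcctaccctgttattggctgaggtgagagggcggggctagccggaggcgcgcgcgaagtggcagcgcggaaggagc
Mcm7: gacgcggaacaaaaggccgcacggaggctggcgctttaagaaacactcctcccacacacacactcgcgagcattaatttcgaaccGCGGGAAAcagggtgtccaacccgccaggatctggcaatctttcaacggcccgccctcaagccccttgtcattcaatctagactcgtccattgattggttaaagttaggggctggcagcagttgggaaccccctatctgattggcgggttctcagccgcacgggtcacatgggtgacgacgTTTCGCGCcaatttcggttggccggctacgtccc
E2f2: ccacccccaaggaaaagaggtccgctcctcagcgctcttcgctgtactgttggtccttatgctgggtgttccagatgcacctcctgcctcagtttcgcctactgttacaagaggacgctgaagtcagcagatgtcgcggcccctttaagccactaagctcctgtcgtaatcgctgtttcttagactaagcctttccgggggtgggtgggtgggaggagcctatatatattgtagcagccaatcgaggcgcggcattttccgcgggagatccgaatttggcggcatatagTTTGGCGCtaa

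In the Mcm3 window the matches began 20 and 39 bases after the start site. In Mcm6 there were 3 matches, of which the first pair overlaps, as do both matches of Mcm5. The other windows with a match belonged to Rfc3, Lig1, Cdt1, Cdc6, Pole2, Uhrf1 and Pola1. These words were not in the windows of Tk1, Rrm1, Rrm2 and Pcna, which are among the genes called in the comparisons below. The windows matched for E2f1, Cdc6 and Dut lay wholly inside the gene. For E2f1 the window was chr2:154569377-154569676 on the minus strand, and the gene runs to 154569892. The sequence upstream of E2f1, Cdc6 and Dut was therefore not searched, and their windows stay in the shares given. The mitosis genes set beside the replication genes in this section carried another signature. The cell-cycle homology region (CHR), searched as TTTGAA and TTCGAA, stood in the windows of 13 of 17 matched mitosis genes (76.5%), against 6 of 30 replication genes (20%) and 16.4% of all tested genes. CCAAT was found for 16 of 30 replication genes (53.3%) and 42.7% of all tested genes. CACCTG, the E-box bound by ZEB proteins, was found for 3 of 30 (10%) and 20.9%. A match is a description of letters and not evidence of binding.

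**Figure D1:**
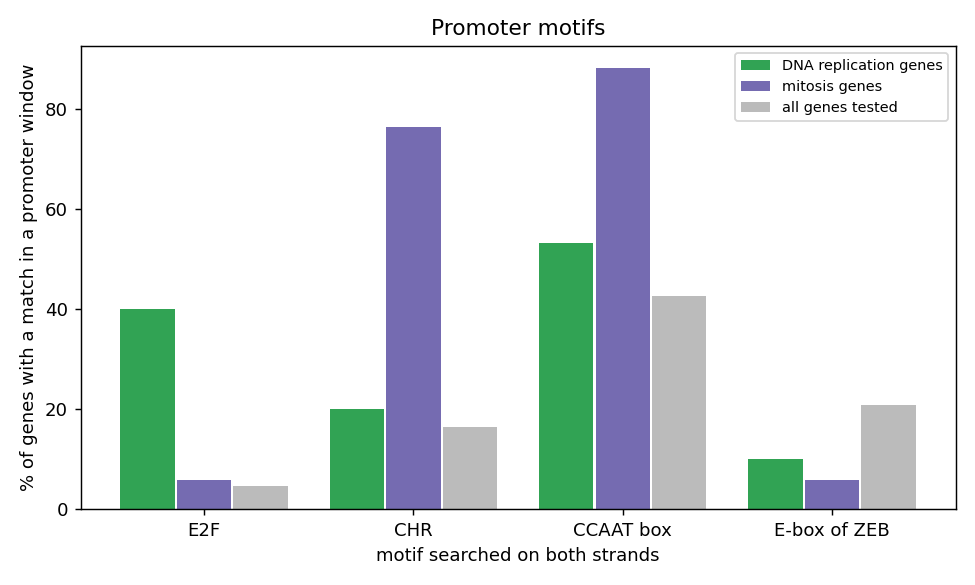
Percentage of genes (vertical axis) with a match to each motif (horizontal axis, both strands) in a promoter window, for the DNA replication genes (30 matched), the mitosis genes (17 matched) and all tested genes (10057 matched). The E2F bar is highest for the replication genes at 40%, and the CHR bar is highest for the mitosis genes at 76.5%.

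In CRE- cells, levels per kilobase of merged exon (GENCODE M21) were led by the clamp and the helicase. Pcna read 51.5 CPM per kilobase in both subsets, Mcm6 48.6 in cDC1 and 47.4 in cDC2, and Mcm3 42.1 in cDC1 and 50.3 in cDC2. Fen1 read 42.7 in cDC1, above Mcm3 there, and 35.3 in cDC2. At the other end stood the checkpoint kinase gene Chek1 at 1.22 and 1.47, the helicase activator Mcm10 at 1.67 and 1.45, and the catalytic subunit gene of the leading-strand polymerase, Pole, at 1.60 and 2.19 CPM per kilobase, cDC1 first. Whether reads were counted by strand is not given in the sources used here. That matters for Fen1, where 78.8% of the exon bases overlap Gm10143 on the other strand, and for Gins2, where 67.3% overlap Gse1. The counts of these genes are uncertain for that reason. The largest overlap was 17.4% of exon bases in Ccne2, 12.7% in Rfc4, 10.7% in Rfc5 and under 10 in each other member.

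The comparison of the normal subsets asked whether unmanipulated cDC2 and cDC1 differ in replication genes. In CRE- cDC2 9 members were higher, led by the E2F factor gene E2f2, and 4 were lower. The share of all tested genes called higher was 27.6%, and 25.8% were called lower, so 9 and 4 of 35 are no more than the background gives. The median log2 fold change of the members was 0.14, against 0.05 over all genes.

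E2f2, which encodes an activator of S-phase genes, read 14.8 and 10.8 CPM and 16.2 and 14.4 CPM in CRE- cDC1 of the deletion and the transgene line. In CRE- cDC2 it read 92.7 and 96.5 CPM and 88.1 and 88.4 CPM. The lowest cDC2 library was far above the highest cDC1 library, and E2f2 was 6.52-fold higher in cDC2 (log2 fold change 2.71 ± 0.10, adjusted p = 4.60e-16). Its relative E2f1 read 40.5 and 34.1 and 39.9 and 38.7 CPM in cDC1, and 49.9 and 43.3 and 36.3 and 36.5 CPM in cDC2 (log2 fold change 0.11 ± 0.12, adjusted p = 0.489). The ranges of E2f1 overlap. Per kilobase of exon, E2f1 stood above E2f2 in cDC1 (12.1 and 2.88 CPM per kilobase) and below it in cDC2 (13.2 and 18.7).

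The other 8 members higher in cDC2 differed by far less. Pola1, the catalytic subunit gene of the priming polymerase, averaged 34.9 CPM in cDC2 and 22.2 CPM in cDC1 (log2 fold change 0.65 ± 0.18, adjusted p = 0.00388). Gins1, a GINS subunit gene, averaged 7.36 and 4.87 CPM (log2 fold change 0.61 ± 0.17, adjusted p = 0.00540). Rrm2, the small subunit of ribonucleotide reductase, averaged 97.3 and 67.1 CPM (log2 fold change 0.55 ± 0.17, adjusted p = 0.00710), and its partner Rrm1 119 and 99.1 CPM (log2 fold change 0.27 ± 0.11, adjusted p = 0.0401). Uhrf1, which keeps DNA methylation in place behind the fork, had a log2 fold change of 0.46 ± 0.11 and an adjusted p of 0.00173. The values were 0.36 ± 0.10 and 0.00348 for Slbp, which binds histone mRNA, 0.41 ± 0.14 and 0.0165 for Mcm4, and 0.26 ± 0.11 and 0.0398 for the clamp loader gene Rfc5. Of these 9 genes only E2f2 exceeded a log2 fold change of 1 in this comparison.

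The 4 members lower in CRE- cDC2 were Gins2, Tyms, Dut and Fen1. Gins2 averaged 8.55 CPM in cDC2 and 12.1 CPM in cDC1 (log2 fold change -0.50 ± 0.19, adjusted p = 0.0288). Tyms, thymidylate synthase, averaged 20.7 and 27.2 CPM (log2 fold change -0.38 ± 0.15, adjusted p = 0.0345). Fen1, the flap endonuclease that trims Okazaki fragments, averaged 85.5 and 104 CPM (log2 fold change -0.27 ± 0.10, adjusted p = 0.0249). Dut, which removes dUTP, passed with an adjusted p of 0.0493. Pcna did not separate the subsets, at 124 and 124 CPM. The count of members called fell from 13 to 8 without the CRE- cDC1 transgene-line replicate 2 and to 8 without the CRE- cDC2 deletion-line replicate 1.

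Of 39 other replication genes, 11 were higher in CRE- cDC2 than in CRE- cDC1 and 1 lower, with Gins3 at a log2 fold change of 1.53 (adjusted p = 1.54e-07) and the polymerase delta subunit gene Pold3 at 0.57 (adjusted p = 9.60e-06). Of 27 tested regulators of the G1 to S step, 10 were higher and 4 lower. The D-type cyclin genes Ccnd2 and Ccnd1 led them at 2.92 (adjusted p = 8.01e-10) and 2.19 (adjusted p = 1.77e-14), with the retinoblastoma family genes Rb1 at 1.20 (adjusted p = 2.18e-09) and Rbl2 at 0.93 (adjusted p = 1.34e-08). Of 20 mitosis genes, 8 were higher and 1 lower, with a median log2 fold change of 0.32.

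**Figure D2:**
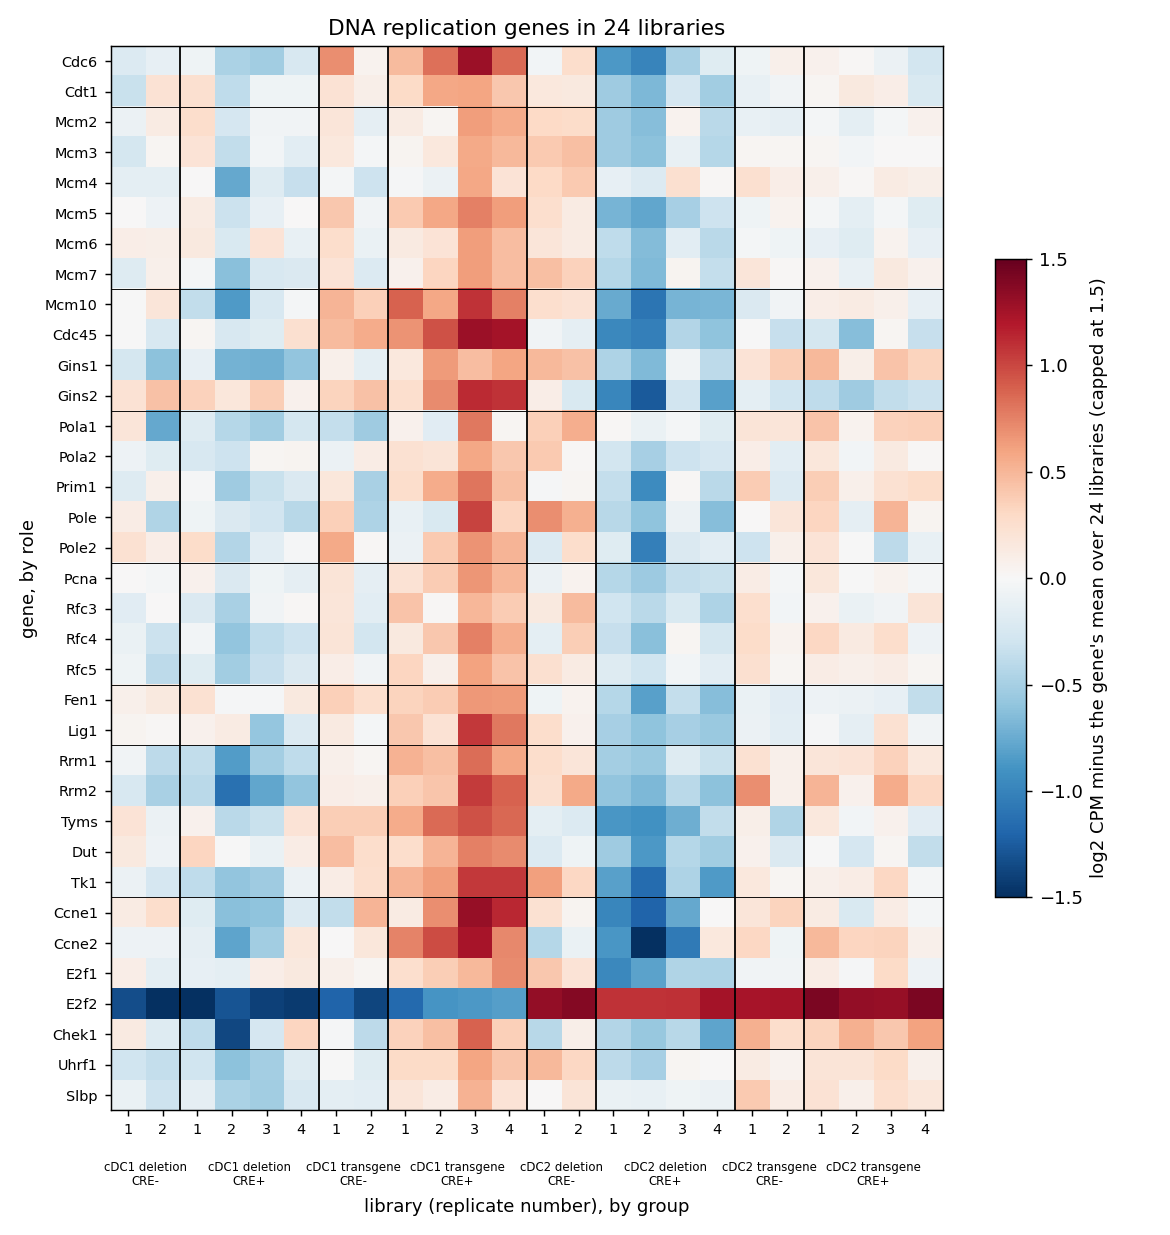
Each cell is a gene's log2 CPM minus its mean over 24 libraries (colour scale, capped at 1.5), with genes in rows by role and libraries in columns by group. The CRE+ cDC1 of the transgene line are mostly red, the CRE+ cDC2 of the deletion line mostly blue, and E2f2 follows the subset.

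Deletion of Zeb2 in cDC2 went with lower levels of replication genes in every functional group. Of the 35 members 19 fell and none rose (edgeR quasi-likelihood test, Benjamini-Hochberg adjustment over 13166 genes), where 2.88% of all tested genes were called lower. All 35 fold changes were below 0, with a median log2 fold change of -0.61 (range -1.27 to -0.20), against 0.01 over all genes. In 30 of the 35 members every CRE+ library lay below both CRE- libraries, and 13.6% of all tested genes had that order. In bulk RNA, fewer cycling cells and less of these transcripts per cell cannot be told apart, here and below.

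In the helicase, 5 of the 6 MCM ring genes fell. Mcm3 read 210.1 and 219 CPM in the CRE- libraries and 110.4, 104, 148 and 119 CPM in the CRE+ libraries (log2 fold change -0.83 ± 0.15, adjusted p = 0.00114). Mcm5 read 186 and 171 CPM without Cre and 96.3, 91.4, 111 and 126 CPM with Cre (log2 fold change -0.75 ± 0.13, adjusted p = 0.00133). Mcm7 read 185 and 171 CPM and 101, 85.0, 139 and 105 CPM (log2 fold change -0.73 ± 0.17, adjusted p = 0.0116). For these 3 genes, whose promoter windows stand above with their E2F words, no CRE+ library reached a CRE- library. Mcm6 and Mcm2 also fell, with log2 fold changes of -0.54 and -0.64 (adjusted p = 0.0244 and 0.0290). Mcm4 did not pass (log2 fold change -0.35 ± 0.17, adjusted p = 0.285). Summed over Mcm2 to Mcm7, the CRE- libraries held 1118 and 1098 CPM and the CRE+ libraries 665, 598, 857 and 724 CPM.

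Among the factors that load and activate the helicase, Mcm10 fell by the most. It read 12.7 and 12.4 CPM in CRE- and 6.28, 4.99, 6.54 and 6.62 CPM in CRE+ cDC2 (log2 fold change -1.04 ± 0.18, adjusted p = 0.0009986). Gins1 read 7.91 and 7.69 CPM and 4.11, 3.56, 5.46 and 4.30 CPM (log2 fold change -0.84 ± 0.21, adjusted p = 0.0179). Both genes kept the groups apart. The licensing factor gene Cdt1 fell as well (log2 fold change -0.64, adjusted p = 0.0202). Cdc6, Cdc45 and Gins2 had log2 fold changes of -0.72, -0.65 and -0.73 and missed the threshold with adjusted p of 0.0605, 0.0604 and 0.0643.

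Of the 5 polymerase and primase genes, Pola2 and Pole fell. Pola2, the B subunit of the priming polymerase, read 38.0 and 29.4 CPM and 24.0, 20.5, 23.3 and 24.4 CPM (log2 fold change -0.55 ± 0.14, adjusted p = 0.0182). Pole had a log2 fold change of -1.04 ± 0.27 (adjusted p = 0.0234). Pola1, Prim1 and Pole2 lay between -0.52 and -0.38 and did not pass. The clamp gene Pcna read 115 and 127 CPM without Cre and 91.3, 84.2, 95.5 and 97.1 CPM with Cre (log2 fold change -0.40 ± 0.11, adjusted p = 0.0408), and the loader gene Rfc3 fell with a log2 fold change of -0.67 (adjusted p = 0.0205). The groups do not overlap in Pcna, and its fall is the smallest of the 19. Rfc4 and Rfc5 did not pass, at -0.42 and -0.36. Of the pair that finishes Okazaki fragments, Fen1 read 85.6 and 93.2 CPM and 66.7, 51.0, 69.9 and 57.5 CPM (log2 fold change -0.55 ± 0.12, adjusted p = 0.00840), and the ligase gene Lig1 fell with a log2 fold change of -0.70 (adjusted p = 0.0289).

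The largest fall of any member was in nucleotide supply. Tk1, the thymidine kinase of the salvage pathway, read 37.6 and 30.3 CPM in the CRE- libraries and 13.9, 11.1, 17.8 and 13.6 CPM in the CRE+ libraries. The highest CRE+ library was well below the lower CRE- library, and the mean was 2.41-fold lower (log2 fold change -1.27 ± 0.18, adjusted p = 0.000117). Rrm2 read 86.4 and 108 CPM and 48.5, 45.7, 54.8 and 47.7 CPM (log2 fold change -0.98 ± 0.20, adjusted p = 0.00391). Rrm1, the large subunit of the same enzyme, read 125 and 118 CPM and 73.4, 70.8, 91.2 and 83.1 CPM (log2 fold change -0.61 ± 0.13, adjusted p = 0.00614). Neither subunit overlapped between the groups. Tyms and Dut, which make dTMP and its precursor, had log2 fold changes of -0.53 and -0.45 and did not pass (adjusted p = 0.102 and 0.09995).

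Of the 5 S-phase regulators, E2f1 fell. It read 49.9 and 43.3 CPM in CRE- and 19.3, 21.6, 27.6 and 27.3 CPM in CRE+ cDC2, without overlap (log2 fold change -0.96 ± 0.15, adjusted p = 0.000238). E2f2 read 92.7 and 96.5 CPM and 79.2, 79.2, 79.5 and 88.5 CPM and did not pass, though each CRE+ library lay below both controls (log2 fold change -0.21 ± 0.11, adjusted p = 0.324). The ratio of E2f2 to E2f1 CPM was 1.86 and 2.23 in the CRE- libraries and 4.09, 3.66, 2.88 and 3.24 in the CRE+ libraries. The cyclin E genes Ccne1 and Ccne2 had log2 fold changes of -0.80 ± 0.30 and -0.44 ± 0.32, Chek1 -0.40 ± 0.29, and none of these passed. Uhrf1 fell, from 127 and 111 CPM to 68.3, 63.5, 92.1 and 90.6 CPM (log2 fold change -0.60 ± 0.14, adjusted p = 0.0107). Slbp did not pass (log2 fold change -0.20 ± 0.12, adjusted p = 0.415).

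The groups overlapped in 5 members (Prim1, Pole2, Rfc4, Ccne2 and Chek1). The count of 19 rested on the 2 controls. Without CRE- cDC2 deletion-line replicate 1 it was 5, without CRE- replicate 2 it was 8, and without CRE+ replicate 2, the library with the lowest level of 22 members, it was 10. Tk1, E2f1, Mcm10 and Mcm3 passed in all 13 alternatives, each of which kept the median between -0.71 and -0.56.

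**Figure D3:**
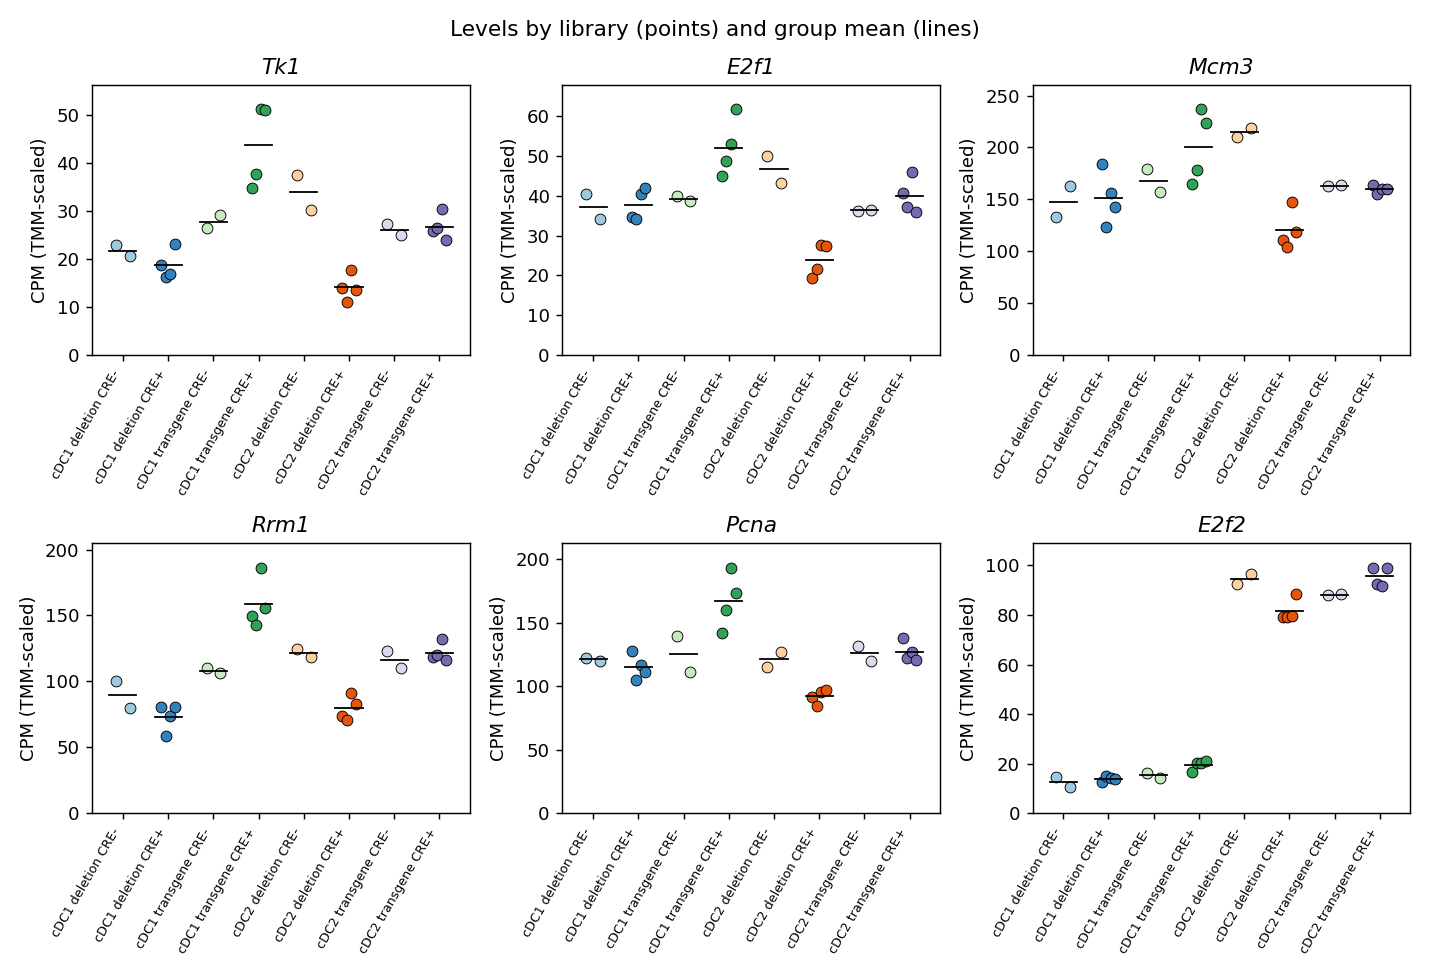
CPM (vertical axes, from 0) of 6 replication genes in each library (points) and group mean (lines), by group (horizontal axes). Tk1, E2f1 and Mcm3 have their lowest group mean in CRE+ cDC2 of the deletion line, Rrm1 and Pcna their highest in CRE+ cDC1 of the transgene line, and E2f2 separates cDC2 from cDC1 in all groups.

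Of 20 mitosis genes in the same cells, 15 fell and none rose, with a median log2 fold change of -0.98. They included the kinetochore checkpoint gene Bub1b at -1.20 (adjusted p = 0.0006859) and the ubiquitin-conjugating enzyme gene Ube2c at -1.05 (adjusted p = 0.00127). The count was 5 without CRE- replicate 1 and 9 without CRE- replicate 2. Of 39 other replication genes 5 fell, led by the histone chaperone gene Asf1b at -0.84 (adjusted p = 0.00417) and including Pold2 at -0.48 (adjusted p = 0.0298). This count was 0 without CRE- replicate 1, 1 without CRE- replicate 2 or CRE+ replicate 1, and 2 without CRE+ replicate 2 or 4. Of 27 G1 to S regulators 4 fell, which were Cdk4 at -0.60 (adjusted p = 0.0003181), its partner cyclin gene Ccnd3 at -1.01 (adjusted p = 0.0005626), the S-phase cyclin gene Ccna2 at -1.14 (adjusted p = 0.00137) and E2f8 at -0.94 (adjusted p = 0.0496). None rose, though 8 of the 27 had values above 0. The highest was Ccnd2, named after its values were seen, which read 70.4 and 95.4 CPM without and 118, 161, 138 and 131 CPM with Cre (log2 fold change 0.72 ± 0.28, adjusted p = 0.157). Its groups did not overlap. Without CRE- replicate 1 the regulators gave 2 calls.

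Markers of other cells also moved in CRE+ cDC2 of the deletion line. Monocyte markers summed to 8406 to 9563 CPM in the CRE- and 5974 to 8426 CPM in the CRE+ libraries, mostly from Nr4a1, which was not called, and 4 of the 10 fell (Csf1r, Cx3cr1, Ccr2 and Lyz2). Progenitor markers summed to 659 to 671 CPM and 994 to 1176 CPM, and Kit rose as 1 of 5 tested. Nearly all of the progenitor sum came from Kit. Cd34 and Spn were not called but lay lower without overlap, Cd34 at 8.57 and 8.96 CPM without and 5.39 to 7.47 CPM with Cre. B cell markers summed to 190.2 to 202.1 CPM and 279 to 373 CPM, and Ms4a1 and Fcer2a rose as 2 of 7 tested. Ms4a1 went from 12.1 and 22.5 CPM to between 163.5 and 211.6 CPM. Cd22 and Cd79b were not called but lay lower without overlap, Cd22 at 114 to 140.2 CPM without and 56.7 to 94.6 CPM with Cre, and Pax5 read at most 0.307 CPM in these 6 libraries. NK cell markers summed to 98.9 to 134 CPM and 159 to 232 CPM with 0 of 8 called and nearly all of the sum from Klrd1, and Ncr1 was at 0 in all 6. Further calls were Slc40a1 higher as 1 of 10 red pulp macrophage markers, Cox6a2 higher as 1 of 10 plasmacytoid dendritic cell (pDC) markers, and Tfrc lower as 1 of 6 erythroid markers tested. Flt3 rose as 1 of 6 dendritic cell markers, Tlr3 rose and Clec9a and Cadm1 fell among 10 cDC1 markers, and Clec12a fell as 1 of 10 cDC2 markers. The part of these cells in the fall of the replication genes was not tested.

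In cDC1, deletion of Zeb2 gave no called member. No member passed with edgeR or with DESeq2, 2 were at an unadjusted p under 0.05 (Mcm10 and Rrm1), and 0.0228% of all tested genes were called in either direction. The median log2 fold change was -0.10, with 29 of 35 values below 0, against 48.81% of all genes. Mcm10 read 10.6 and 12.1 CPM without Cre and 8.27, 5.91, 9.04 and 10.4 CPM with Cre (log2 fold change -0.43 ± 0.18, adjusted p = 0.996). Rrm1 read 101 and 79.6 CPM and 80.7, 58.5, 73.5 and 80.4 CPM (log2 fold change -0.30 ± 0.13, adjusted p = 0.996), with overlap. The widest shift was in Ccne1, at -0.58 ± 0.30. For 34 of 35 members the 95% interval of the log2 fold change lay within -1 and 1, and the lowest bound was -1.21. Of the mitosis genes, other replication genes and G1 to S regulators, 0 passed, with 4, 1 and 4 at an unadjusted p under 0.05, and DESeq2 called 0 in each list. Values below 0 were found for 19 of 20, 25 of 39 and 17 of 27 genes of these lists. The median log2 fold change of the mitosis genes was -0.25.

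The difference between the subsets in their response to deletion was tested by itself. The Cre effect was lower in cDC2 than in cDC1 for all 35 members, with a median difference of -0.52 on the log2 scale, and 3 members passed where 0.494% of all tested genes did in that direction. They were E2f1 at -0.98 ± 0.21 (adjusted p = 0.0228), Tk1 at -1.05 ± 0.26 (adjusted p = 0.0478) and Mcm3 at -0.87 ± 0.21 (adjusted p = 0.0478). In cDC1 E2f1 read 40.5 and 34.1 CPM without and 34.7, 34.1, 40.5 and 41.9 CPM with Cre, and Mcm3 133 and 163 CPM and 184, 124, 156 and 143 CPM. These calls were not stable. The count was 0 in a fit of these 4 groups alone, and 0 without CRE- cDC1 replicate 1, CRE- cDC1 replicate 2 or CRE- cDC2 replicate 1. It was 1 without CRE+ replicate 1 or 4 of cDC1, or CRE+ replicate 1 or 2 of cDC2. Of the G1 to S regulators Ccnd3 and Cdk4 passed, at -1.42 and -0.63 (adjusted p = 0.00412 and 0.0224), with 1 call without either CRE- cDC1 library and 0 without CRE- cDC2 replicate 1.

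**Figure D4:**
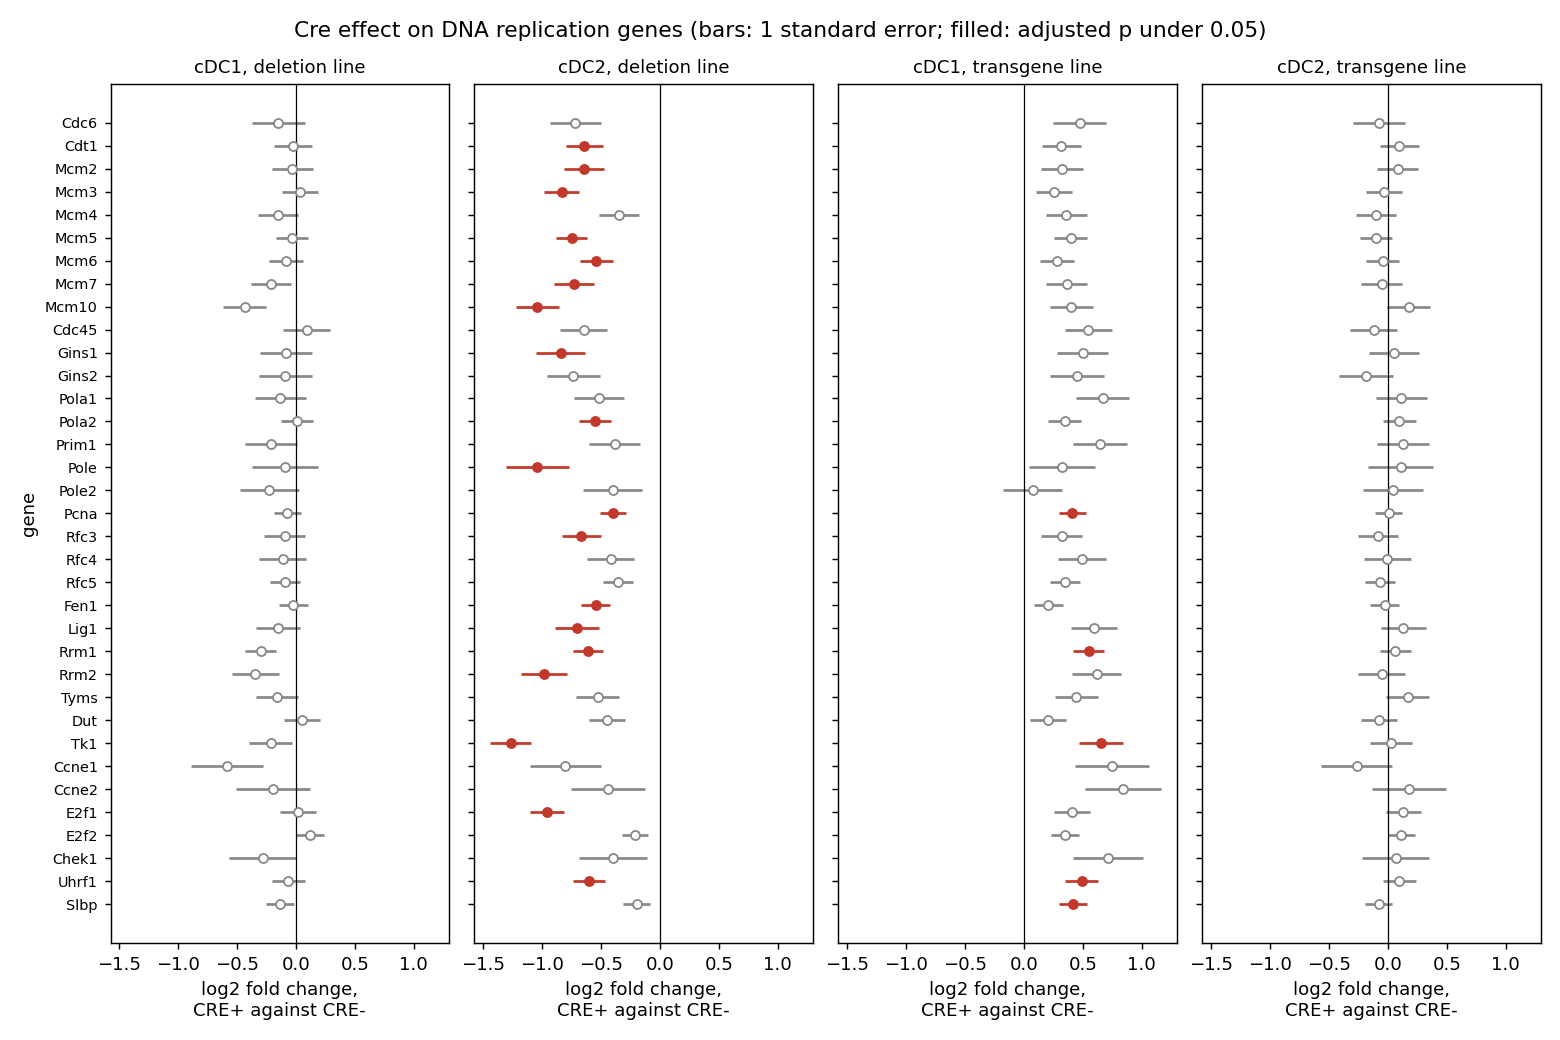
Log2 fold change of CRE+ against CRE- (horizontal axes) with 1 standard error for each of 35 genes (vertical axis) in the 4 combinations of subset and line, filled where the adjusted p is under 0.05. All points lie left of 0 in cDC2 of the deletion line and right of 0 in cDC1 of the transgene line, with 19 and 5 filled.

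The Zeb2 transgene in cDC1 went with the opposite shift. All 35 members had higher fitted levels in CRE+ cDC1, with a median log2 fold change of 0.41 (range 0.08 to 0.84) against 0.02 over all genes. The test called 5 members higher and none lower, where 3.58% of all tested genes were called higher, and 24 members were at an unadjusted p under 0.05. In 19 members every CRE+ library lay above both CRE- libraries, an order shown by 13.4% of all tested genes.

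Of the 5 nucleotide supply genes, Rrm1 and Tk1 rose. Rrm1 read 110.1 and 106 CPM in the CRE- libraries and 149.5, 142, 186 and 156 CPM in the CRE+ libraries (log2 fold change 0.55 ± 0.13, adjusted p = 0.0119). Tk1 read 26.5 and 29.2 CPM and 34.95, 37.8, 51.3 and 51.2 CPM (log2 fold change 0.65 ± 0.19, adjusted p = 0.0326). In both genes the groups were apart. The clamp gene Pcna read 139.8 and 111 CPM without Cre and 142, 160.0, 194 and 174 CPM with Cre, where the lowest CRE+ library was just above the higher control (log2 fold change 0.41 ± 0.12, adjusted p = 0.0307). Uhrf1 read 89.6 and 79.7 CPM and 109.9, 110.1, 136 and 119.8 CPM (log2 fold change 0.49 ± 0.14, adjusted p = 0.0373). Slbp, needed for histone supply in S phase, read 97.3 and 96.9 CPM and 122, 117, 155 and 124 CPM (log2 fold change 0.42 ± 0.12, adjusted p = 0.0382). The groups of these last 2 genes did not overlap either.

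None of the 6 MCM ring genes, the 4 helicase activation genes, the 2 licensing genes, the 5 polymerase and primase genes or the 5 S-phase regulators passed. Their median log2 fold changes were 0.34, 0.48, 0.40, 0.35 and 0.72. Ccne2 had the largest value, 0.84 ± 0.32, from 8.28 and 9.26 CPM to 13.8, 16.2, 19.4 and 13.6 CPM, with an adjusted p of 0.127. E2f1 was at 0.41 (adjusted p = 0.115) and E2f2 at 0.35 (adjusted p = 0.0808). E2f2 read 16.7, 20.2, 20.4 and 21.0 CPM in CRE+ cDC1, which remained far under the cDC2 level. Mcm3, which fell clearly in the deletion, was at 0.26 ± 0.15 (adjusted p = 0.373), and Pole2 was lowest at 0.08 ± 0.25.

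The rise depended on single libraries. CRE+ cDC1 replicate 3 of the transgene line held the highest level of 32 of the 35 members among all 24 libraries. Without it 1 member passed, without CRE+ replicate 4 2 passed, without CRE- replicate 1 3 passed, and without CRE- replicate 2 none passed. Without CRE+ replicate 1 or 2 the count was 8. Over 13 alternatives, Rrm1 lost its call in 2, Pcna and Slbp in 5, and Tk1 and Uhrf1 in 6. With the CRE- cDC1 of both lines as controls, an alternative chosen after the data were seen, 23 members rose. Of 20 mitosis genes 12 rose, with a median log2 fold change of 0.83, including the spindle kinase gene Aurka at 0.92 (adjusted p = 0.000625) and Ube2c at 1.02 (adjusted p = 0.00182). That count was 2 without CRE- replicate 1, 5 without CRE- replicate 2 and 6 without CRE+ replicate 3. Of 39 other replication genes 5 rose, among them Asf1b at 0.67 (adjusted p = 0.0220) and Rfc1 at 0.58 (adjusted p = 0.0342), and of the G1 to S regulators Ccna2 rose at 0.77 (adjusted p = 0.0309). The other replication genes had 0 calls without either CRE- library, 1 without CRE+ replicate 3 or 4 and 3 without CRE+ replicate 1, and the regulators had 0 without CRE- replicate 1 or CRE+ replicate 3, 2 without CRE+ replicate 4 and 3 without CRE+ replicate 1.

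Subset markers moved with the transgene in cDC1. The 10 cDC1 markers summed to 10180 to 12430 CPM in CRE- and 6098 to 8684 CPM in CRE+ cDC1, and 6 of 10 fell. The 10 cDC2 markers summed to 261 to 276 CPM and 503 to 790 CPM, and 9 of 10 rose. Red pulp macrophage markers summed to 177 to 212 CPM and 272 to 511 CPM, with 3 of 10 called higher. Monocyte markers summed to 1492 to 2617 CPM and 1804 to 2802 CPM, with 3 of 10 called higher (Csf1r, S100a4 and Ms4a4c). The pDC markers summed to 119 to 125 CPM and 87.0 to 99.9 CPM, with Ccr9 and Pacsin1 lower as 2 of 10, and Flt3 and Zbtb46 were lower as 2 of 6 dendritic cell markers. Plasma cell markers had Prdm1 higher and Jchain lower of 5, and Prf1 was lower as 1 of 8 NK cell markers. B cell markers summed to 40.3 to 66.8 CPM and 24.0 to 44.2 CPM, and progenitor markers to 399 to 477 CPM and 182 to 310 CPM, with Ms4a1 and Kit lower. The progenitor sums again came nearly all from Kit. Whether cells of another kind contributed to the replication signal was not tested.

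In cDC2 the transgene gave no called member. No member passed with edgeR or DESeq2, 0 were at an unadjusted p under 0.05, and 0.327% of all tested genes were called in either direction. The median log2 fold change was 0.03, with 19 values above and 16 below 0. Values ran from -0.26 for Ccne1 to 0.18 for Ccne2. All 35 of the 95% intervals lay within -1 and 1, from -0.89 to 0.83 at their widest, so smaller changes are not resolved. Tk1 read 27.4 and 25.0 CPM without and 25.8, 26.6, 30.4 and 24.1 CPM with Cre, and Mcm3 163 and 164 CPM and 164, 156, 159.9 and 159.8 CPM. Both sets of libraries overlap. The Cre effect was lower in cDC2 than in cDC1 for all 35 members (median difference -0.42), but no member passed in this test of the difference with edgeR or DESeq2. At an unadjusted p under 0.05 there were 9, the smallest adjusted p was 0.158 for Slbp, and 2.01% of all tested genes were called in either direction.

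The deletion in cDC2 and the transgene in cDC1 share no library. Lower in the former and higher in the latter were 35 of 35 replication genes and 20 of 20 mitosis genes, and 28.55% of all tested genes. Called in both were Tk1, Rrm1, Pcna and Uhrf1, which are 4 of 35 (11.4%), against 0.463% of all tested genes. Summed over the 35 genes, CRE+ cDC1 of the transgene line held 2282, 2407, 3157 and 2801 CPM and their controls 2193 and 1868. For deletion in cDC2, the sum was 2348 and 2357 CPM without Cre and 1496, 1358, 1791 and 1617 CPM with Cre. All other libraries lay between 1466 and 2192 CPM. The highest 3 sums of the series were thus in CRE+ cDC1 of the transgene line, and the lowest was in CRE+ cDC2 of the deletion line, whose range overlaps that of CRE+ cDC1 of the same line.

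**Figure D5:**
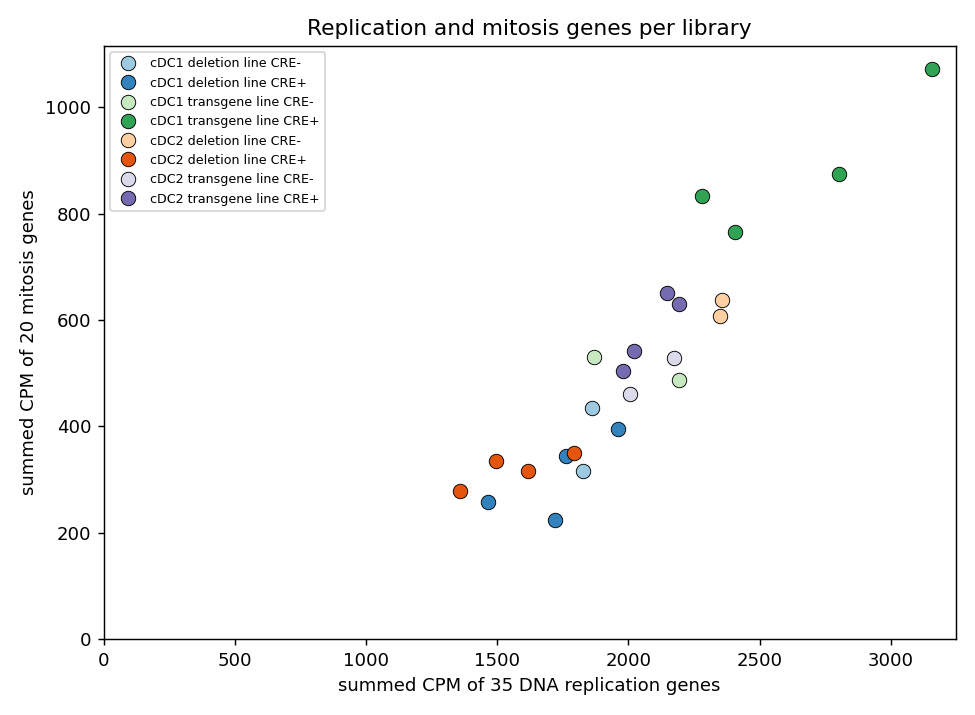
Summed CPM of the 35 replication genes (horizontal axis) and of 20 mitosis genes (vertical axis) in each of the 24 libraries, coloured by group. CRE+ cDC1 of the transgene line reach 2282 to 3157 and 766 to 1073 CPM, and CRE+ cDC2 of the deletion line sit at 1358 to 1791 and 279 to 351 CPM.

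The mitosis genes followed the same order across groups. They summed to 608 and 637 CPM in CRE- cDC2 of the deletion line at lowest and highest, and to 279 to 351 CPM in CRE+ cDC2. In cDC1 of the transgene line they summed to 487.5 to 530.3 CPM without and 766 to 1073 CPM with Cre. Both sums of a library rest on the same depth and scaling.

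CRE- libraries of the 2 lines were compared as a check on the controls. No member passed in cDC1 or in cDC2 with edgeR or DESeq2, with 2 at an unadjusted p under 0.05 in each subset, where 0.129% and 0.137% of all tested genes were called in either direction. In cDC1, 29 of 35 members were higher in the transgene line, against 49.69% of all tested genes. Their median was 0.17, with intervals reaching from -0.87 to 1.11. In 13 members both transgene-line libraries lay above both deletion-line libraries, an order shown by 16.8% of all tested genes. In cDC2, 25 of 35 were lower in the transgene line, against 51.12% of all tested genes. Their median was -0.17, with intervals from -1.18 to 1.24. There 17 members lay lower without overlap and 2 higher, against 21.5% and 19.2% of all tested genes. Of 20 mitosis genes, 20 were higher in cDC1 (15 without overlap) and 20 lower in cDC2 (14 without overlap). Mcm3 and E2f1 gave the smallest p in cDC2, at -0.40 and -0.36 (adjusted p = 0.497 and 0.545). Against the CRE- cDC2 of both lines, an alternative chosen after the data were seen, 24 members were lower in CRE+ cDC2 of the deletion line.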

How the data were processed

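Bulk RNA of 24 libraries of sorted splenic cDC1 and cDC2 was used. The authors deposited 1 table of raw read counts per gene for each library. Per the submitters' processing notes, FastQC 0.11.4, Trimmomatic 0.35, TopHat2 2.1.0 and SAMtools 0.1.18 were used with build mm10. Which tool counted the reads, with which annotation and by strand or not, is not given in the sources used here. The labels' protocols describe SMART-Seq v4 amplification and single reads. Rows that name no gene were left out of library sizes. Reads without a feature were 10.4% to 15.7% of all reads listed.

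Low genes were removed by filterByExpr, which needed a count of 10 in enough libraries of the 8 groups and a total of 15. Counts were scaled by TMM (factors 0.925 to 1.07), and fitted as 8 group means over all 24 libraries with edgeR 4.0.16 (R 4.3.3) by glmQLFit and glmQLFTest. The 9 contrasts were each adjusted by Benjamini-Hochberg over 13166 genes, and called at 0.05. In the text ± is 1 standard error on the log2 scale. With 4 against 2 libraries, an exact permutation of 1 gene cannot go below p = 0.0667. Scripts were tested on simulated data.

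The members and the other lists were chosen with earlier results of these data known. Named were all members past the threshold, or the 12 with the smallest p, and up to 4 passing genes from each other list. Alternatives were DESeq2 1.42.0 (size factors and Wald test), no filter, a filter of 5 CPM in 4 libraries, the compared groups alone, replicate blocks, each replicate left out and, added after the data were seen, controls of both lines. Marker genes Ighm, Ighd, Trac and Ly6g were not analysed here.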

Additional observations from a re-analysis of the deposited data

Results flagged for a closer look

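Among 144 groups of 4 libraries checked for a library far from the other 3, 4 groups stood out, and chance gives about 1 in 20. Chek1 read 11.24 CPM in CRE+ cDC1 replicate 3 of the transgene line, where the other 3 read 7.73 to 8.31. E2f2 read 88.48 CPM in CRE+ cDC2 replicate 4 of the deletion line, where the others read 79.19 to 79.5. Pole2 read 6.02 CPM in CRE+ cDC2 replicate 2 of the deletion line, where the others read 10.56 to 10.99. Fen1 read 69.49 CPM in CRE+ cDC2 replicate 4 of the transgene line, where the others read 82.43 to 85.01.

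The effect of deletion differed between cDC2 and cDC1 by a test of the difference in 3 members, with log2 differences of -0.98 for E2f1, -0.87 for Mcm3 and -1.05 for Tk1.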

How the results depend on the processing

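With 2 controls in each group, counts of calls were less stable than directions. Leaving out 1 library at a time, the members called numbered 5 to 21 for deletion in cDC2 (19 in all libraries), 0 to 8 for the transgene in cDC1 (5), 8 to 11 between CRE- subsets (13) and 0 to 4 for the difference between subsets in the deletion line (3). For the transgene in cDC1 the members called were 8 with the DESeq2 Wald test, 2 in a fit of the compared groups alone and 23 with controls of both lines, the last chosen after seeing the data. For the difference between subsets in the deletion line they were 0 in a fit of the compared groups alone. The cause of these moves was not tested, except that fewer libraries entered the smaller fits. For the transgene in cDC1, Pole ranged from -0.024 to 0.804 and Pole2 from -0.165 to 0.39 on the log2 scale with 1 library left out. Pole turned negative without CRE- replicate 2, and Pole2 did so there and without CRE+ replicate 3 (-0.028). Other scaling changed the median of all genes by little and the sign of members in 1 comparison, where 20 and not 19 were above 0 for the transgene in cDC2.

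The labels give replicate numbers but no shared mouse. Deviations of same-numbered cDC1 and cDC2 libraries correlated at 0.0764 to 0.170 in CRE+ and at -0.00779 and 0.0352 in CRE- libraries, so not every pair passed 0.1. All 4 CRE+ pairs of the transgene line did (0.101 to 0.111), but its CRE- pairs did not, and 3 of 4 CRE+ pairs of the deletion line did. In addition, 8 of 8 CRE+ libraries in each line correlated best with their own number, which is a hint from the data and not from the design. With the replicate number as a block, 1 member was called for the transgene in cDC1 and 24 for deletion in cDC2. With a replicate block nested in line and Cre, 15 were called between CRE- subsets, 3 for the difference in the deletion line and 0 for that in the transgene line.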
